A study of Mus musculus with 6 samples.

Results

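Ezh2, Eed, Suz12, Dnmt1, Uhrf1, Dnmt3a, Dnmt3b, Tet1, Tet2 and Tet3 encode the core of Polycomb repressive complex 2 (PRC2), the DNA methyltransferases with the protein that guides one of them, and the TET enzymes. They were taken by gene symbol from the table of raw exon counts, which held all 10 members among its 39017 genes, and all 10 had enough counts to be tested among 18268 genes. The libraries came from induced germinal center B cells (iGBs), which are splenic B cells of C57BL6/J mice activated with CD40L, BAFF and IL-4 (5 ng/ml per the labels, while the study's methods give another concentration) on 40LB feeder cells for 3.5 days and then separated from the feeders. Control mice had the genotype Cg1-cre and Prmt1-null mice the genotype Cg1-cre Prmt1f/f, with 3 mice and 3 libraries per group. Both groups carry the Cre, which is driven from the IgG1 constant region locus, so Prmt1 is deleted after activation and in the cells that express the Cre. Each group held 2 females and 1 male. The ages of the mice are not given in the sources used here.

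Several of the genes encode enzymes of proliferating germinal center B cells (GCBC). EZH2 is the catalytic subunit of PRC2 and places methyl groups on lysine 27 of histone H3, a mark of silenced genes. EED binds that mark and stimulates the enzyme, and SUZ12 holds the complex together. In the germinal center, EZH2 is known for keeping cell cycle inhibitors and plasma cell (PC) regulators silent. DNMT1 copies CpG methylation onto the new DNA strand and is recruited by UHRF1, which recognizes hemimethylated CpG. DNMT3A and DNMT3B place methyl groups on previously unmethylated DNA, and TET1, TET2 and TET3 oxidize methylcytosine as a step toward its removal. Prmt1 encodes an arginine methyltransferase, and the comparison asks what its loss does to the transcripts of these other methylation enzymes. Methyl marks on histones or DNA were not measured.

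E2F proteins activate replication genes in S phase, and the E2F letters TTTGGCGC and TTTCCCGC were searched on both strands of promoter windows that run from 250 bases before to 50 bases after an annotated transcription start. All 10 genes matched the RefSeq promoter table (GRCm38.p6), with 15 windows. Of these, 3 windows of 3 genes held an E2F motif, compared with 1.56% of all 32851 windows. They are shown because they are the windows that carry E2F letters, those of the PRC2 genes Ezh2 and Suz12 and of Dnmt1. E2F binding was not measured. The sequences are written 5′ to 3′ on the strand of the gene, with the E2F letters in capitals. The Ezh2 window (chr6:47594981-47595280, minus strand) has its motif 3 bases after the first transcribed base. The Dnmt1 window (chr9:20952574-20952873, minus strand) belongs to one of 3 annotated starts and has the motif 33 bases after that start. The Suz12 window (chr11:79992856-79993155, plus strand) has it at position −219 relative to the start.
Ezh2 promoter: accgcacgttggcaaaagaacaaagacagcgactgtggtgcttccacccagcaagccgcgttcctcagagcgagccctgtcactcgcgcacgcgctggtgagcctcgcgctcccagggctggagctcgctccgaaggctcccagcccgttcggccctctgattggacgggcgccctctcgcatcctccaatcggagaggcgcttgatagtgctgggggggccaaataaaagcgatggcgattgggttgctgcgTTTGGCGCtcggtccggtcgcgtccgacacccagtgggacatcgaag
Dnmt1 promoter: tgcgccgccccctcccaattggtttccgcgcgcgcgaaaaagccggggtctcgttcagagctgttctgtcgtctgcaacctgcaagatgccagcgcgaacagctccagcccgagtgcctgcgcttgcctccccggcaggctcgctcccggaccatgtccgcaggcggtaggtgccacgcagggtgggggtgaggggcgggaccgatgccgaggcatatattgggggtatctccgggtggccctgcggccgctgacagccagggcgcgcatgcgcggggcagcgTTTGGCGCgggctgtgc
Suz12 promoter: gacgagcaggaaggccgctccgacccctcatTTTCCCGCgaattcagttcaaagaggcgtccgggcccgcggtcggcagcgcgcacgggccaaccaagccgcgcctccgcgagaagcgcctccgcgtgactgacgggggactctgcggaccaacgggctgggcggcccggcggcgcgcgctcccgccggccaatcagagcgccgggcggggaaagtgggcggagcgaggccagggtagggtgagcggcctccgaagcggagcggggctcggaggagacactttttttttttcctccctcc

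The TTTGGCGC letters of Ezh2 and Dnmt1 were in 0.51% of all windows and the TTTCCCGC letters of Suz12 in 1.07%, and no E2F match overlapped a CCAAT match. CCAAT, the letters bound by NF-Y, was in 8 of the 15 windows, those of 6 of the 10 genes, compared with 37.4% of all windows. CACGTG, an E-box that Myc can bind, was in 1 window of Dnmt3a and in 7.15% of all windows. These matches describe letters only. The CpG content of the windows was also counted. The windows of the 10 genes held a median of 30 CG dinucleotides compared with 7 over all windows, whatever the expression of their genes. They ran from 2, in 1 window of Dnmt1, to 57, and 2 windows of Dnmt3a that overlap each other held 46 and 47. The Tet2 window (chr3:133544341-133544640, minus strand) held 57, more than 99.8% of windows and is shown because it is the most CpG-dense of the 15, with no capitals because it held none of the motifs.
Tet2 promoter: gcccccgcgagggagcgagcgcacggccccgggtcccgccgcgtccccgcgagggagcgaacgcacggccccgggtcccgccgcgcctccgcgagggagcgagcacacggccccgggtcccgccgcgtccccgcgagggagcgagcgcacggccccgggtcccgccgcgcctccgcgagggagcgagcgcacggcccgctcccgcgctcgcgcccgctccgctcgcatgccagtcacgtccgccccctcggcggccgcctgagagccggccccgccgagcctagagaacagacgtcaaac

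Prmt1 was checked first. Its normalized counts were 3964, 3925 and 4838 in Control libraries and 1745, 1478 and 1477 in Prmt1-null libraries, so that the libraries matched their labels. The Prmt1-null mean was still 36.9% of the Control mean. Whether these counts came from cells without deletion or from exons that remain after deletion was not tested. A normalized count is the raw count scaled to the mean effective library size after TMM normalization. The libraries held 45343250 to 62774232 counts, and 3 counts, the smallest number taken as detected, were 0.0478 to 0.0662 CPM, which is the count scaled to library size (this floor covers counting error only). Where no other test is named, an adjusted p is that of the edgeR quasi-likelihood test with Benjamini-Hochberg adjustment over the 18268 genes. A gene was called at an adjusted p under 0.05 with a mean normalized count over 100. By this rule 216 genes (1.18%) were called, 106 higher (0.58%) and 110 lower (0.602%) in Prmt1-null iGBs. The number of called genes was between 31 (without Prmt1-null replicate 2) and 340 (without Control replicate 3) when 1 library was left out, and it was 128, 59, 51 and 77 without Control replicate 1, Control replicate 2, Prmt1-null replicate 1 and Prmt1-null replicate 3. Called genes had absolute log2 fold changes from 0.24 to 1.84. With 3 libraries against 3, an exact permutation test of a single value cannot give a p under 0.1.

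The levels of the 10 genes per length covered a wide range in Control iGBs. RPKM here is CPM on the TMM-scaled library size per kb of the gene's exons in GENCODE M21, merged over all its annotated transcripts. This length was not checked against the transcripts expressed here, and the order of the genes and the RPKM ratios between genes depend on it. Uhrf1 was highest at 68.4 ± 1.06 RPKM (SD, n = 3), followed by Suz12 at 62.8 ± 4.05 RPKM. Dnmt1, Eed and Ezh2 formed the next level, at 29.6 ± 0.957, 20.8 ± 0.548 and 18.3 ± 0.541 RPKM. The maintenance pair and the PRC2 core were therefore all above the de novo methyltransferases and the TET genes. Tet3 was at 7.54 ± 0.412 RPKM, Dnmt3a at 4.80 ± 0.212 RPKM and Tet2 at 2.83 ± 0.248 RPKM. Tet1 and Dnmt3b were lowest, at 0.521 ± 0.123 and 0.484 ± 0.0857 RPKM, and these neighbors could not be ordered in Control iGBs because their ranges overlapped (0.421 to 0.658 for Tet1, 0.399 to 0.571 for Dnmt3b). The ranges of Uhrf1 (67.6 to 69.7) and Suz12 (59.0 to 67.0) did not overlap in Control iGBs. The order of the 10 means was the same in Prmt1-null iGBs, from Uhrf1 at 64.7 ± 4.67 RPKM to Dnmt3b at 0.317 ± 0.0647 RPKM. There, the ranges of Tet1 (0.442 to 0.498) and Dnmt3b (0.247 to 0.375) were apart, while those of Uhrf1 (60.1 to 69.4) and Suz12 (58.6 to 60.1) met.

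**Figure D1:**
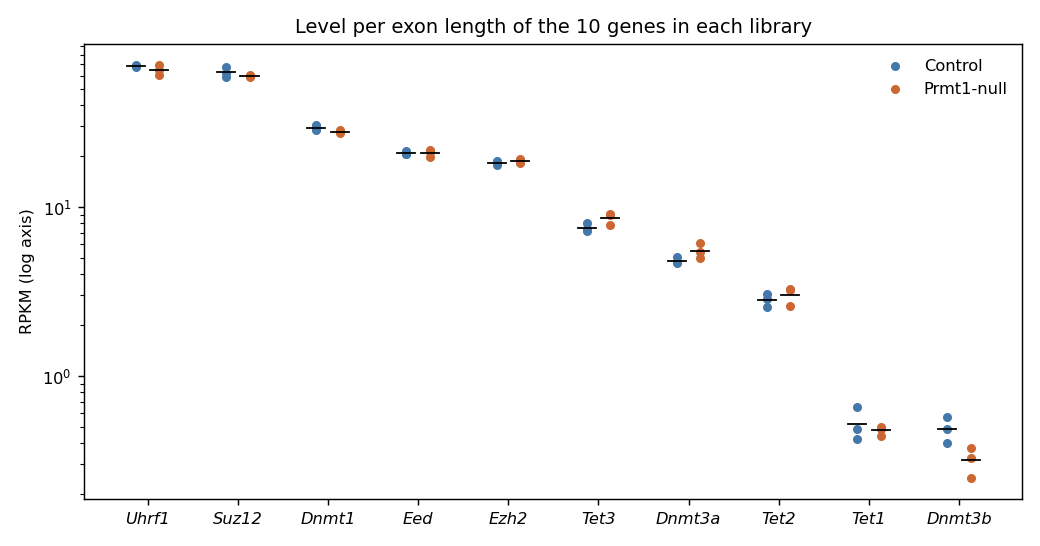
Level of the 10 genes in each of the 6 libraries, as RPKM on a log axis. Points are libraries (blue, Control; orange, Prmt1-null) and black bars are group means. Uhrf1 and Suz12 lie near 60 to 70 RPKM and Tet1 and Dnmt3b below 0.7 RPKM in all 6 libraries.

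None of the 10 genes was called in Prmt1-null iGBs, where 1.18% of all tested genes were. The count was 0 of 10 with edgeR, DESeq2 and limma-voom and in every other alternative run, including each library left out in turn. At an unadjusted p under 0.05 edgeR gave 3 of 10 genes (Dnmt3a, Dnmt3b and Tet3), compared with 2467 of all 18268. This number hung on single libraries, as it was 0 of 10 without Control replicate 2. The log2 fold change was above 0 for 5 genes and below 0 for 5, with a median of −0.03 beside −0.001 over all tested genes. Control and Prmt1-null libraries had separate ranges of normalized counts for 2 of 10, Dnmt1 and Dnmt3b, both lower in Prmt1-null libraries. Among all tested genes this held for 19.9% in either direction, for 9.95% with higher and for 9.92% with lower counts in Prmt1-null libraries.

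**Figure D2:**
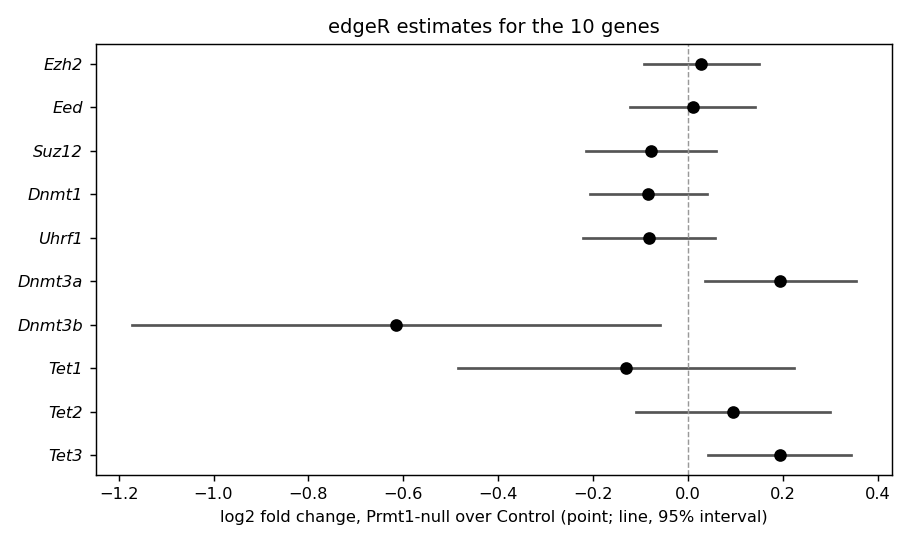
edgeR log2 fold change of each of the 10 genes, Prmt1-null over Control, with its 95% interval (line). The intervals of Dnmt3a, Dnmt3b and Tet3 leave out 0 before adjustment over all genes, and the widest interval, −1.17 to −0.06, is that of Dnmt3b.

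The PRC2 genes Ezh2 and Eed had the 2 smallest absolute log2 fold changes of the 10 genes. Ezh2 (ENSMUSG00000029687, mm10 chr6:47530139-47595341, minus strand) had normalized counts of 6767, 6955 and 6555 in Control and 6817, 6729 and 7133 in Prmt1-null libraries. The groups overlapped and the means, 6759 ± 200 and 6893 ± 212 (SD, n = 3), differed by 1.98%. The log2 fold change was 0.03 (SE 0.057, 95% interval −0.09 to 0.15, adjusted p = 0.874). Eed (ENSMUSG00000030619, chr7:89954654-89980983, minus strand) had 4556, 4357 and 4352 in Control and 4191, 4514 and 4649 in Prmt1-null libraries. Prmt1-null replicates 1 and 3 were the lowest and the highest of the 6, so the groups overlapped (log2 fold change 0.01, interval −0.12 to 0.14, adjusted p = 0.966). Suz12 (ENSMUSG00000017548, chr11:79993106-80034123, plus strand) had 18381, 17147 and 16167 in Control and 16056, 16436 and 16478 in Prmt1-null libraries. Control replicate 1 was highest and Control replicate 3 lay within the Prmt1-null values (log2 fold change −0.08, interval −0.21 to 0.06, adjusted p = 0.648). The annotation places antisense or noncoding genes on the opposite strand over 2.61% of the exon bases of Ezh2, 6.82% of Eed and 3.60% of Suz12, and the strand setting of the counting is not given in the sources used here.

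Ratios of the PRC2 transcripts were compared between the genotypes. EZH1 is the less active paralogue of EZH2 that predominates in resting cells, and Ezh2 made up 70.3% ± 1.19 of the summed Ezh2 and Ezh1 RPKM in Control and 69.1% ± 1.01 in Prmt1-null libraries (SD, n = 3, exact two-sided permutation test p = 0.3). The RPKM ratio of Suz12 to Eed was 3.01 ± 0.127 and 2.84 ± 0.113 (exact permutation p = 0.2), and that of Ezh2 to Eed 0.877 ± 0.0338 and 0.889 ± 0.0398 (exact permutation p = 0.6). In all, 9 ratios were compared, and none had a p under 0.45 after Benjamini-Hochberg adjustment over the 9.

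Of 11 other PRC2 subunits and partners, 10 were tested and 0 were called, with 4 log2 fold changes above 0, 6 below and a median of −0.01. Ezh1 had a log2 fold change of 0.11 (adjusted p = 0.473), with 3 Control libraries between 3074 and 3242 and 3 Prmt1-null libraries between 3369 and 3485, which did not overlap. Phf19, a Polycomb-like protein that helps to bring PRC2 to chromatin, had a log2 fold change of −0.19 (adjusted p = 0.442), also without overlap. Ezhip, an inhibitor of PRC2, had 0 counts in all 6 libraries.

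PRC1, the complex that binds chromatin marked by PRC2 and ubiquitinates histone H2A, likewise had 0 of 22 tested subunits called, with a median log2 fold change of 0.04. Its smallest p belonged to Cbx2, a reader of methylated lysine 27, with normalized counts of 1318, 1429 and 1418 in Control and 1059, 1138 and 1101 in Prmt1-null libraries. All 3 Prmt1-null values lay below the Control values (log2 fold change −0.34, SE 0.094, adjusted p = 0.109). Ring1, a ubiquitin ligase of PRC1, had 373, 392 and 340 in Control and 476, 433 and 513 in Prmt1-null libraries (log2 fold change 0.36, adjusted p = 0.234). Of the 6 genes for enzymes that remove lysine 27 methylation or H2A ubiquitin and their partners, 0 were called, with a median of −0.05. Among them Asxl2, a partner of the BAP1 deubiquitinase, had means of 6675 and 5711 (log2 fold change −0.22, adjusted p = 0.079), which passed the threshold with DESeq2 and without Control replicate 3 (log2 fold change −0.25). Bap1 itself had a log2 fold change of 0.14 (adjusted p = 0.520).

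The maintenance pair had slightly lower means in Prmt1-null iGBs, within what the test could not tell from 0. Dnmt1 (ENSMUSG00000004099, chr9:20907209-20959888, minus strand) had normalized counts of 11981, 12524 and 11764 in Control and 11193, 11716 and 11319 in Prmt1-null libraries. The Prmt1-null values were all below the Control values, with a gap of less than 1 SD between Control replicate 3 and Prmt1-null replicate 2. The means, 12090 ± 392 and 11409 ± 273 (SD, n = 3), differed by −5.63% (log2 fold change −0.08, SE 0.057, interval −0.21 to 0.04, adjusted p = 0.575). Uhrf1 (ENSMUSG00000001228, chr17:56303321-56323486, plus strand) had 16451, 16069 and 15977 in Control and 14191, 15244 and 16397 in Prmt1-null libraries. Its Prmt1-null values were spread more widely, and replicate 3 lay within the Control values (log2 fold change −0.08, interval −0.22 to 0.06, adjusted p = 0.640). The RPKM ratio of Uhrf1 to Dnmt1 was 2.32 ± 0.0836 and 2.32 ± 0.167 (exact permutation p = 1.0).

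**Figure D3:**
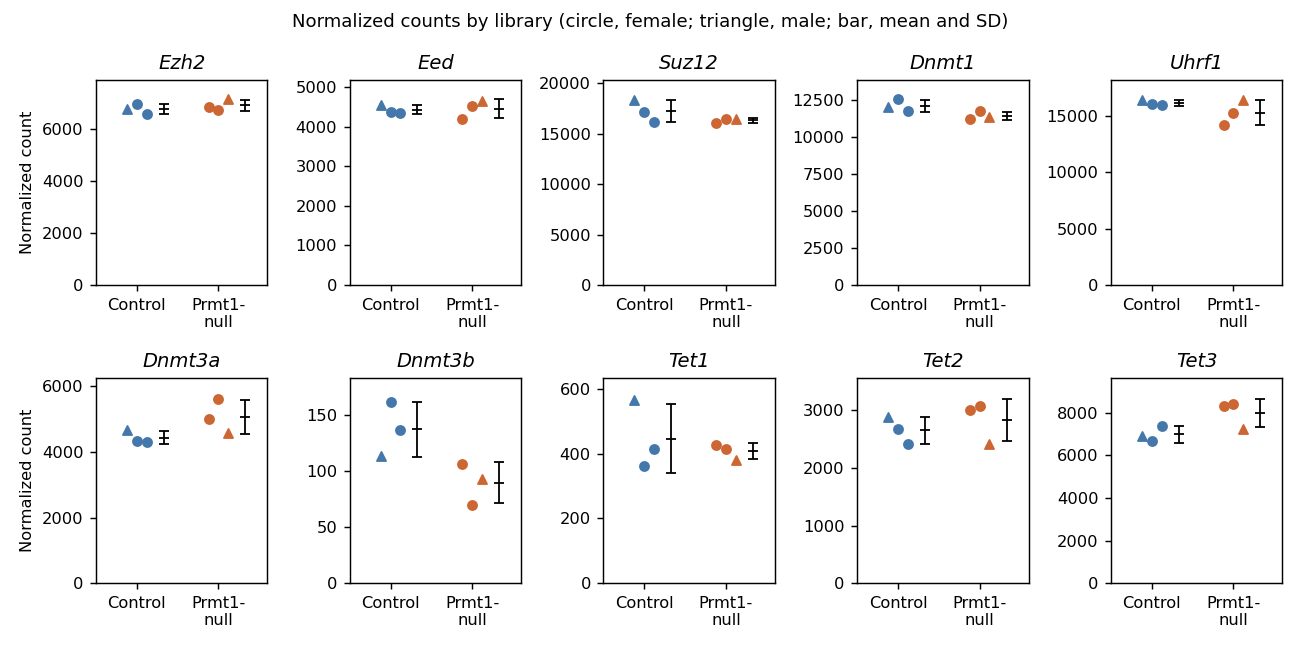
Normalized counts of the 10 genes in each library, with axes from 0 and 1 panel per gene. Circles are females and triangles males, and the bar beside each group is the mean and SD of its 3 libraries. The groups are apart for Dnmt1 and Dnmt3b and overlap for the other 8 genes.

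DNA replication genes are a comparison for Dnmt1 and Uhrf1, which are expressed with them in S phase. Of 28 replication genes, 3 (E2f2, Rrm2 and Ccne2) fell and 0 rose, beside 0.602% and 0.58% of all tested genes. The log2 fold change was below 0 for 22 of the 28, with a median of −0.13, and the counts of 12 were lower and of 2 higher without overlap (9.92% and 9.95% of all tested genes). E2f2, an activating E2F, fell from 8842 to 6572 normalized counts (log2 fold change −0.43, SE 0.064, adjusted p = 0.00610). Rrm2, a subunit of ribonucleotide reductase, fell from 7590 to 6159 (log2 fold change −0.30, SE 0.061, adjusted p = 0.0330). Ccne2, cyclin E2, fell from 3499 to 2599 (log2 fold change −0.43, SE 0.088, adjusted p = 0.0332), and 17.4% of its exon bases overlap Ints8 on the opposite strand. The call of E2f2 was lost without Prmt1-null replicate 2 (adjusted p = 0.0682). Without Control replicate 1, Control replicate 2, Prmt1-null replicate 1, Prmt1-null replicate 2 and Prmt1-null replicate 3, the adjusted p was 0.0681, 0.115, 0.184, 0.166 and 0.0688 for Rrm2 and 0.0914, 0.146, 0.184, 0.107 and 0.112 for Ccne2. The log2 fold changes of Dnmt1 and Uhrf1, both −0.08, lay above the median of these genes, and this difference was not tested. With 1 library left out Uhrf1 ran from −0.14 (without Prmt1-null replicate 3) to −0.027 (without Prmt1-null replicate 1).

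The de novo methyltransferases went opposite ways in their means. Dnmt3a (ENSMUSG00000020661, chr12:3806007-3914443, plus strand) had normalized counts of 4658, 4334 and 4306 in Control and 5017, 5614 and 4582 in Prmt1-null libraries. The 2 female Prmt1-null libraries were the highest of the 6, and the male Prmt1-null library lay below the male Control library. The means, 4433 ± 196 and 5071 ± 518 (SD, n = 3), differed by 14.4% (log2 fold change 0.19, SE 0.074, interval 0.04 to 0.35, unadjusted p = 0.0204, adjusted p = 0.248 in edgeR). Dnmt3b (ENSMUSG00000027478, chr2:153649450-153687730, plus strand) had 113.0, 161.5 and 136.6 in Control and 106.3, 70.1 and 92.6 in Prmt1-null libraries. All Prmt1-null values were below the Control values, and the 2 nearest, 106.3 and 113.0, differed by less than either group's SD. The means, 137.1 ± 24.3 and 89.7 ± 18.3, differed by −34.6% (log2 fold change −0.62, SE 0.259, interval −1.17 to −0.06, unadjusted p = 0.0324, adjusted p = 0.304 in edgeR).

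Dnmt3a RPKM was 17.2%, 15.3% and 16.2% of Dnmt1 RPKM in Control and 19.9%, 21.2% and 17.9% in Prmt1-null libraries, which did not overlap. The means were 16.3% ± 0.949 and 19.7% ± 1.66 (SD, n = 3, exact two-sided permutation p = 0.1, the smallest possible). Dnmt3b RPKM was 7.91%, 12.1% and 10.3% of Dnmt3a RPKM in Control and 6.91%, 4.07% and 6.59% in Prmt1-null libraries (means 10.1% ± 2.13 and 5.85% ± 1.56, exact permutation p = 0.1). Both exact permutation p-values were 0.45 after adjustment over the 9 ratios.

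Of 12 partners of the DNA methyltransferases, 11 were tested and 0 called, with a median log2 fold change of −0.03. Uhrf2, the paralogue of Uhrf1, had means of 5018 and 4556 (log2 fold change −0.14, adjusted p = 0.308). Dnmt3l, the catalytically inactive cofactor of the de novo enzymes, had 176, 217 and 203 in Control and 118, 149 and 169 in Prmt1-null libraries (log2 fold change −0.45, adjusted p = 0.362). Neither overlapped between the groups, with lower counts in Prmt1-null libraries.

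Readers of methylated CpG held 1 called gene among 10 tested, Mbd4, which was lower (0.602% of all tested genes were called lower), and had a median of −0.04. MBD4 is both a methyl-CpG binding protein and a glycosylase that removes thymine or uracil opposite guanine. Mbd4 had normalized counts of 5848, 5317 and 6025 in Control and 4337, 4006 and 4467 in Prmt1-null libraries, a fall with no overlap (log2 fold change −0.42, SE 0.067, adjusted p = 0.00801). The call was lost without Prmt1-null replicate 1 (adjusted p = 0.0614) and without Prmt1-null replicate 2 (adjusted p = 0.0790). An antisense gene overlaps 5.00% of its exon bases. Mbd1, a transcriptional repressor at methylated CpG, had means of 2606 and 2120 (log2 fold change −0.30, adjusted p = 0.0921), and was called by DESeq2 and by edgeR with no filter on low counts.

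Of the TET genes, Tet3 had the smallest p. Tet3 (ENSMUSG00000034832, chr6:83362373-83459084, minus strand) had normalized counts of 6895, 6650 and 7398 in Control and 8327, 8398 and 7216 in Prmt1-null libraries. The 2 female Prmt1-null libraries lay above all Control libraries, and the male one lay below Control replicate 3. The means, 6981 ± 381 and 7980 ± 663 (SD, n = 3), differed by 14.3% (log2 fold change 0.19, SE 0.070, interval 0.04 to 0.34, unadjusted p = 0.0158, adjusted p = 0.225 in edgeR). Tet2 (ENSMUSG00000040943, chr3:133463679-133545139, minus strand) had 2870, 2663 and 2406 in Control and 3002, 3064 and 2410 in Prmt1-null libraries. Its female Prmt1-null libraries were again the highest and the male one was nearly the lowest of the 6 (log2 fold change 0.09, interval −0.11 to 0.30, adjusted p = 0.735). Tet1 (ENSMUSG00000047146, chr10:62804570-62908996, minus strand) had 563.7, 360.8 and 414.3 in Control and 427.3, 413.9 and 379.1 in Prmt1-null libraries. The single high value was that of Control replicate 1, the male (log2 fold change −0.13, interval −0.48 to 0.22, adjusted p = 0.794), and without it the log2 fold change of Tet1 was 0.07 (adjusted p = 0.891).

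Tet3 made up most of the TET transcripts per length in both genotypes. Its share of the summed TET RPKM was 69.2% ± 2.87 in Control and 71.2% ± 0.766 in Prmt1-null libraries (SD, n = 3, exact permutation p = 0.4). Tet2 made up 26.0% ± 2.35 and 24.9% ± 0.916 (exact permutation p = 0.6), and Tet1 4.76% ± 0.988 and 3.93% ± 0.163 (exact permutation p = 0.2).

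TET partners and the base excision steps that replace oxidized methylcytosine held 2 called genes among 14 tested of 16, both lower (0.602% of all tested genes were called lower), with a median of −0.01. Neil3, a glycosylase expressed in dividing cells, had 1505, 1607 and 1592 in Control and 929, 852 and 1066 in Prmt1-null libraries. This was the lowest log2 fold change of the list at −0.72 (SE 0.105, adjusted p = 0.00504). Xrcc1, the scaffold of single-strand break repair, had 2855, 3153 and 2872 in Control and 2348, 2293 and 2202 in Prmt1-null libraries (log2 fold change −0.38, SE 0.071, adjusted p = 0.0241). The call of Neil3 was lost without Prmt1-null replicate 1 (adjusted p = 0.0509) and Prmt1-null replicate 2 (adjusted p = 0.0542), and that of Xrcc1 without Control replicate 2 and Prmt1-null replicates 1, 2 and 3 (adjusted p = 0.126, 0.0961, 0.121 and 0.118). Apex1, the endonuclease that cuts after a glycosylase, was singled out after its values were seen because it went the other way, with 2888, 3233 and 2845 in Control and 3773, 3570 and 3658 in Prmt1-null libraries (log2 fold change 0.29, SE 0.069, adjusted p = 0.0569). It shares 61.7% of its exon bases with Pip4p1 on the opposite strand, and reads of the overlapping genes could not be told apart without the strand. Enzymes that supply or use the cofactors S-adenosylmethionine and α-ketoglutarate had 0 of 13 called and a median of −0.01. Mat2a, which makes S-adenosylmethionine, had a log2 fold change of −0.09 (adjusted p = 0.564), and Idh3a, a subunit of the mitochondrial enzyme that makes α-ketoglutarate, of 0.18 (adjusted p = 0.304).

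**Figure D4:**
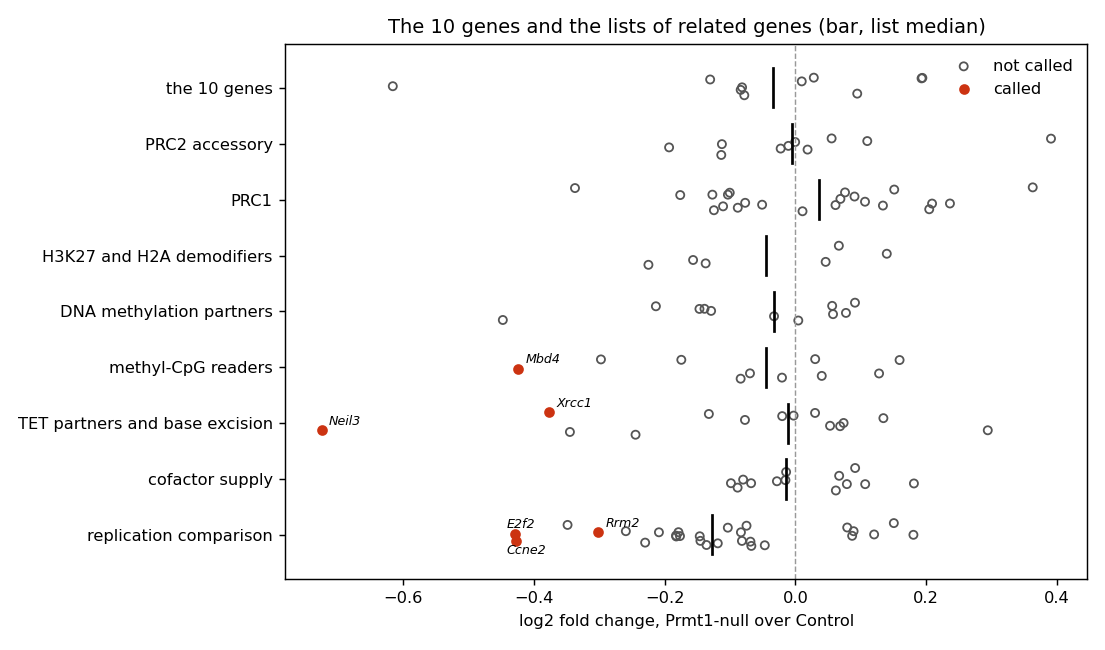
log2 fold change, Prmt1-null over Control, of each tested gene (circle) among the 10 genes and 8 lists of related genes. Filled red circles are called genes and black bars list medians. The 6 called genes, Mbd4, Neil3, Xrcc1, E2f2, Rrm2 and Ccne2, are all lower, and the replication genes have the lowest median, −0.13.

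Where edgeR called 0 genes of a list, some tested genes had an unadjusted p under 0.05, as did 2467 of all 18268. These were 0 of 10 other PRC2 subunits, 3 of 22 PRC1 genes and 1 of 6 enzymes that remove the marks. They were 2 of 11 methyltransferase partners and 1 of 13 cofactor enzymes. DESeq2 called 1 PRC1 gene (Cbx2), 1 gene of the mark-removing enzymes (Asxl2) and 0 genes of the other 3 lists, and limma-voom called 0 genes of all 5. Over all 18268 tested genes DESeq2 called 720 and limma-voom 249. In the lists with calls, DESeq2 added Mbd1 to the readers, Apex1 (higher) and Cxxc5 (lower) to the TET partners and Pola1 (lower) to the replication genes. limma-voom gave the same calls as edgeR there.

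Genes known as targets of PRC2 or DNA methylation in one tissue or another were also examined, and several of them were well expressed in Control iGBs. Of 6 genes known to be repressed by EZH2 in GCBC, 0 were called and the median log2 fold change was 0.06. Cdkn1a, the cell cycle inhibitor p21, had 635, 724 and 630 in Control and 1043, 774 and 1111 in Prmt1-null libraries, without overlap (log2 fold change 0.56, SE 0.138, adjusted p = 0.0749), and was called by DESeq2 and by edgeR with no filter on low counts. Irf4, a PC regulator, had means of 27160 and 30386 normalized counts (log2 fold change 0.16, adjusted p = 0.337). The other 4 had log2 fold changes from −0.38 to 0.29. Of 39 Hox genes 38 were matched in the table, 4 of these had enough counts to be tested, and 0 were called. Hoxb4 was the best counted, with 117 to 162 normalized counts in Control and 137 to 155 in Prmt1-null libraries (log2 fold change 0.12, adjusted p = 0.859), and Hoxa7 had group means of 13.1 and 19.5 (log2 fold change 0.56, adjusted p = 0.772). With 1 library left out, Hoxb4 ran from 0.036 (without Control replicate 1) to 0.28 (without Control replicate 2) and Hoxa7 from 0.28 (without Prmt1-null replicate 3) to 0.83 (without Control replicate 2). Hoxaas3 on the opposite strand covers 20.4% of the exon bases of Hoxa7.

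Of 19 germline genes that promoter methylation silences in somatic cells, 3 were tested and 0 called. Brdt, a testis bromodomain gene, had group means of 38.1 and 44.6 (log2 fold change 0.21, adjusted p = 0.885), and without Control replicate 1 its log2 fold change was −0.06. Sycp3, a synaptonemal complex gene with 52.2% of its exon bases over Chpt1 on the opposite strand, had means of 22.9 and 15.3 (log2 fold change −0.55, adjusted p = 0.820), and the sign of this change turned without Control replicate 1 (0.48). Of 24 imprinted genes 22 were matched in the table, 14 were tested and 0 called. Peg10, which is expressed from the paternal allele, had 4.86, 5.27 and 26.4 normalized counts in Control and 64.8, 46.1 and 47.3 in Prmt1-null libraries. These did not overlap, and Control replicate 3 was the highest of its group (log2 fold change 2.11, SE 0.648, adjusted p = 0.147). Without Control replicate 3 the log2 fold change was 3.34 (adjusted p = 0.0206), and with the other libraries left out in turn it was 1.73 to 2.20. With no filter on low counts the adjusted p of Peg10 was 0.0138. The mean of Peg10 was under the 100 normalized counts required for a call. Gnas, the best counted of the list, had means of 53642 and 50502 normalized counts (log2 fold change −0.09, adjusted p = 0.570). At an unadjusted p under 0.05 edgeR gave 2 of 6 EZH2-repressed, 0 of 4 Hox, 0 of 3 germline and 1 of 14 imprinted genes, beside 2467 of all 18268. DESeq2 called Cdkn1a and 0 others of these 4 lists, beside 720 of all 18268.

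The male Prmt1-null library had the lowest values of its group for Dnmt3a, Tet1, Tet2 and Tet3, and the male Control library the highest of its group for Dnmt3a, Tet1 and Tet2. Values by sex are therefore given as a description, chosen after these values had been seen. In females alone (2 against 2) the log2 fold change was 0.30 for Dnmt3a, 0.26 for Tet2, 0.25 for Tet3 and 0.12 for Tet1 (adjusted p = 0.122, 0.230, 0.165 and 0.854 in edgeR). In the single male pair, which has no replicate, the log2 ratios were −0.02, −0.25, 0.07 and −0.57. With 1 male in each group, sex and the individual mouse cannot be told apart, and no difference between the sexes can be drawn from these values. For Dnmt3b the females had a log2 fold change of −0.76 (adjusted p = 0.365) and the male pair a log2 ratio of −0.29, both below 0.

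Markers of cell types were measured beside these genes. The summed CPM of 11 B cell and GCBC markers was 6578 to 6958 in Control and 6949 to 7272 in Prmt1-null libraries. Of these markers 1 was called, Mybl1, a germinal center transcription factor (log2 fold change −0.50, adjusted p = 0.0456), and its call was lost when any 1 of the 6 libraries was left out (adjusted p 0.0767 to 0.169). The 7 PC markers summed to 1184 to 1299 CPM in Control and 1349 to 1442 CPM in Prmt1-null libraries, which did not overlap. Irf4, Xbp1 and Tnfrsf13b had the highest counts of the 7. The log2 fold change was above 0 for 5 of the 6 tested and below 0 for Jchain (−0.09). Irf4, Prdm1, Sdc1 and Jchain each overlapped between the groups, and Tnfrsf17 had 5 counts in all 6 libraries together. Among the 6 tested, 0 were called by edgeR, and Xbp1 and Tnfrsf13b were nearest (log2 fold change 0.29 and 0.24, adjusted p = 0.0571 and 0.0680). DESeq2, limma-voom and edgeR with no filter on low counts called both higher, beside 321, 128 and 319 genes called higher in all. With sex as a covariate, edgeR called Xbp1 (adjusted p = 0.0415). Irf4 and Prdm1 are also in the list of EZH2-repressed genes. The part of these markers in the values of the 10 genes was not tested, and in bulk RNA fewer cells of a type and less RNA per cell cannot be told apart.

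Fibroblast markers, which the feeder cells could bring, summed to 241 to 258 CPM in Control and 275 to 293 CPM in Prmt1-null libraries, most of it from Vim, which activated B cells also express. Without Vim the sums were 29.7 to 34.4 and 33.0 to 41.5 CPM. Of 14 such markers 12 were tested and 0 called (Vim 0.18 and Col1a1 0.44, both adjusted p = 0.173), and Postn and Lum had 0 counts. T cell markers summed to 56.0 to 75.1 and 56.1 to 69.4 CPM, but to only 1.27 to 3.18 and 1.53 to 3.34 CPM without Cd2, with 0 of 6 tested called (Cd3g 1.00 and Cd8a 1.08, adjusted p = 0.669 and 0.712). With 1 library left out Cd3g ran from 0.45 (without Control replicate 1) to 1.70 (without Control replicate 3), and Cd8a from 0.094 (without Prmt1-null replicate 1) to 2.66 (without Control replicate 2). Myeloid markers summed to 3.90 to 12.7 and 5.68 to 7.80 CPM, with 0 of 6 tested called (S100a8 −1.58 and Cx3cr1 0.67, adjusted p = 0.513 and 0.612), and S100a8 was 1.32 without Control replicate 2. In edgeR with no filter on low counts the adjusted p of S100a8 was 0.000248. Its normalized counts were 362 in Control replicate 2 and 0 and 35.3 in Control replicates 1 and 3, so a low p of that run can rest on 1 library. The unadjusted p was under 0.05 for 3 of 12 fibroblast, 0 of 6 T cell and 0 of 6 myeloid markers in edgeR, beside 2467 of all 18268 genes. DESeq2 called Vim of the fibroblast list and 0 T cell or myeloid markers, beside 720 of all 18268.

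The genes nearest to 4 members over the 6 libraries were found by the mean absolute difference of centered log2 levels among 13091 genes. This distance is not scaled to the spread of a gene, so genes that vary little lie close together whatever their pattern. The search is a description of 6 libraries that share their depth and preparation. For Ezh2 they were Rpl9-ps7 (0.0077), Dcun1d1 (0.0093) and Gm16933 (0.0099), of which Rpl9-ps7 is a pseudogene whose reads may come from its parent gene. For Dnmt1 they were Eaf1 (0.016), Trim37 (0.0166) and Zcchc8 (0.0176), and for Uhrf1 they were Ska3 (0.0172), BC004004 (0.0176) and Cltc (0.0184). For Tet2 they were Ncor1 (0.0248), Msto1 (0.0309) and Atg4a (0.0374), more distant than the nearest genes of the other 3.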

How the data were processed

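RNA-seq of 3 Control and 3 Prmt1-null iGB libraries was analysed. Per the labels and the study's methods, Trimmomatic 0.32 was used for trimming, STAR 2.3.0e for alignment to mm10 and featureCounts 1.4.4 for counting on Ensembl exons, and the authors deposited raw counts per gene. The study's methods describe the 3 libraries of a group as biological replicates from separate mice. Gene positions and exon lengths came from GENCODE M21 (37693 gene IDs matched directly, 803 by symbol, 521 not matched).

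The 398 chromosome Y genes were dropped, following the study. Counts were filtered with filterByExpr (minimum count 10), normalized by TMM and tested with the quasi-likelihood test of edgeR 4.0.16 in R 4.3.3. The SE was the log2 fold change divided by the root of the F statistic. The biological coefficient of variation was 0.154. The method was tested on simulated data. Alternatives were DESeq2 1.42.0, limma-voom (limma 3.58.1), median-of-ratios size factors, no low-count filter, no minimum mean, chromosome Y kept, sex as a covariate, a replicate block and each library left out. Females alone were added after seeing the data. A sex by genotype term was also fitted and is not reported, because it rests on 1 male per group and followed from the values seen.

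The members and lists were chosen with earlier results of these data known. All members are named. From each list the called genes are named, or the 2 with the smallest p where fewer than 2 were called, and for 4 members the 3 genes nearest by centered log2 level. The list members Ezhip, Prdm1, Sdc1, Jchain, Tnfrsf17, Apex1, Cxxc5, Pola1, Postn, Lum and Cd2 were added after their values were seen. One marker gene that this rule would name is not reported here.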

Additional observations from a re-analysis of the deposited data

How the results depend on the processing

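The number of the 10 genes called was 0 in every alternative run. Against 216 genes called in all, DESeq2 called 720, edgeR with no filter on low counts 675, and edgeR on females alone, chosen after seeing the data, 113. Leaving out 1 library gave 31 to 340. limma-voom (249), median-of-ratios size factors (218), sex as a covariate (283), chromosome Y genes kept (213) and no minimum mean (218) stayed within 1.5 times. For the 10 genes, 135 log2 fold changes under alternatives kept their direction and side of the threshold and 5 turned: Eed without Control replicate 2, Control replicate 3 or Prmt1-null replicate 3 (range over libraries left out −0.023 to 0.056) and Tet1 without Control replicate 1 (range −0.27 to 0.074) and in females alone (0.12). With 1 library left out the others ranged as follows: Ezh2 from 0.0023 to 0.051, Suz12 from −0.12 to −0.026, Dnmt1 from −0.10 to −0.058, Uhrf1 from −0.14 to −0.027, Dnmt3a from 0.12 to 0.26, Dnmt3b from −0.75 to −0.46, Tet2 from 0.032 to 0.20 and Tet3 from 0.16 to 0.26. Sycp3 turned with limma-voom (0.31), in females alone (0.61) and without Control replicate 1 (0.48, range −1.10 to 0.48), S100a8 with limma-voom (0.74) and without Control replicate 2 (1.32, range −2.15 to 1.32), and Brdt in females alone (−0.10) and without Control replicate 1 (−0.057, range −0.057 to 0.72). The causes were not tested. The replicate numbers name libraries and do not pair them: deviations of same-numbered libraries correlated at −0.31, 0.22 and −0.34, and that of the males at 0.49. With the number as a replicate block, 151 genes were called, of which 136 were among the 216. Mybl1 lost its call under the replicate block (adjusted p = 0.0907) and with chromosome Y genes kept (adjusted p = 0.0571). Of the named list genes, alternatives lost a call 31 times and gained one 16 times. With 1 library left out Peg10 ranged from 1.73 to 3.34. How far depth limited these values was not tested.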
